A study of Mus musculus with 6 samples.

Results

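The comparison described here is that of CD115-Ly6C- with CD115+Ly6C- common dendritic cell progenitors, and it uses 4 of the 6 libraries of the series, 2 for each subset. The cells came from the bone marrow of wildtype C57BL/6 mice aged 6 to 8 weeks, and nothing in the labels gives a treatment or an engineered allele. They were sorted by flow cytometry on the surface proteins CD115 and Ly6C. Both subsets were sorted as Ly6C negative, so their labels differ in CD115 alone. The 2 libraries of another subset, CD115+Ly6C+, entered only to estimate the spread between libraries. The labels do not state the other gates that defined a progenitor, how many mice were pooled, or whether the 2 libraries of a subset came from separate animals, so each p-value measures the spread between these libraries, which may be technical.

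CD115 is the receptor for colony-stimulating factor, a tyrosine kinase encoded by Csf1r that supports the growth and survival of monocytes and macrophages. Common dendritic cell progenitors also carry FLT3, the receptor for the cytokine that drives dendritic cell production. They give rise to conventional dendritic cells, which present antigen to T cells, and to plasmacytoid dendritic cells, which make type I interferon. Progenitors without CD115 are known for a bias toward plasmacytoid dendritic cells, a lineage that shares transcription factors and some recombination activity with early lymphocytes.

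Polyadenylated RNA was sequenced, and the authors deposited an expected count and an FPKM value for each gene. The totals of the 4 libraries lay between 18226415 and 19450329 expected counts. Reads were recorded for 13307 and 13448 genes in the CD115+Ly6C- libraries and for 14127 and 13765 genes in the CD115-Ly6C- libraries. Levels below are CPM (counts scaled to the same total in every library) after TMM scaling, a correction for differences in library composition, unless FPKM, which also corrects for gene length, is named. Differences are log2 fold changes of CD115-Ly6C- against CD115+Ly6C-, with their standard errors, from edgeR's quasi-likelihood F test. A gene was called at a Benjamini-Hochberg adjusted p under 0.05 over all genes tested.

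Csf1r itself matched the sort in direction but was not lost. Its level was 213 and 259 CPM in the CD115-Ly6C- libraries against 414 and 513 CPM in the CD115+Ly6C- libraries. The libraries of the subsets did not overlap, and the log2 fold change was -0.97 ± 0.14 (SE; adjusted p = 0.00377). At 68.5 ± 8.11 FPKM (SD, n = 2) in the sorted CD115-negative cells, Csf1r RNA was well above the detection limit. In bulk libraries such as these, fewer cells that express a gene and less of its RNA per cell cannot be told apart. Flt3 was abundant in all 4 libraries, at 1139 and 1063 CPM without CD115 and at 666 and 657 CPM with it, and the log2 fold change was 0.73 ± 0.10 (SE; adjusted p = 0.00353). Kit, the stem cell factor receptor, stood at 189 and 169 CPM against 108 and 94.9 CPM (log2 fold change 0.82 ± 0.13, SE; adjusted p = 0.00549). Both defining receptor genes of a dendritic cell progenitor were thus present on either side of the sort, and both were higher in the CD115-Ly6C- libraries.

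Il7r, which encodes the interleukin 7 receptor chain of lymphoid progenitors and is low in classically defined common dendritic cell progenitors, was not low without CD115. It reached 79.9 and 69.6 CPM in the CD115-Ly6C- libraries against 14.4 and 13.4 CPM, a 5.37-fold difference (adjusted p = 0.000179). Ly6c2, one of the genes for the Ly6C antigen, was detected in both subsets although both were sorted as Ly6C negative. Its level was 41.8 and 61.8 CPM without CD115 and 121 and 188 CPM with it (log2 fold change -1.58 ± 0.23, SE; adjusted p = 0.00391). Ly6c1, the other Ly6C gene, was scarce, at 1.36 and 0.896 CPM against 1.68 and 3.71 CPM, and was not called (adjusted p = 0.0764). That value was 0.0395 without CD115+Ly6C- replicate 1, 0.0292 with DESeq2 and 0.0185 with no filter on low counts. Ly6c1 and Ly6c2 are close paralogs, so reads could have been split between them in the counting. Ly6a, which encodes the stem cell antigen Sca-1, was higher without CD115, at 23.6 and 22.9 CPM against 5.35 and 9.34 CPM (adjusted p = 0.0096), a call that ended without CD115+Ly6C- replicate 1 (adjusted p = 0.0635).

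Across the transcriptome 12127 genes were tested, and 1844 (15.2%) were called. Of these, 1022 genes (8.43% of those tested) were higher in the CD115-Ly6C- libraries and 822 genes (6.78%) were lower. These shares are the background for every list count below. Large differences lay mostly on 1 side: 621 genes (5.12%) were called and at least 2-fold higher, and 154 genes (1.27%) were called and at least 2-fold lower. The scale bears on the split, since scaling by library totals gave 1383 higher and 479 lower calls, or 74.3% higher against 55.4% with TMM. Under library totals the median log2 fold change of all genes tested was 0.14, against 0.017 with TMM. Directions below are therefore relative to the median gene, and no called gene changed sign under any alternative that was run.

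The 4 genes given as markers of the comparison separated the subsets in every library. Ccr9 encodes the chemokine receptor CCR9, which guides plasmacytoid dendritic cells and T cell progenitors to the gut and thymus. It was at 46.7 and 28.3 CPM without CD115 and at 1.05 and 1.33 CPM with it, 31.4-fold apart (log2 fold change 4.97 ± 0.33, SE; adjusted p = 0.000178). Mycn, which encodes a transcription factor of the Myc family found in stem and progenitor cells, was at 20.6 and 14.6 CPM against 0.682 and 0.637 CPM (log2 fold change 4.72 ± 0.69, SE; adjusted p = 0.00386). F13a1, the A subunit of coagulation factor XIII and a gene of the monocyte lineage, was at 215 and 358 CPM against 1415 and 1294 CPM (log2 fold change -2.24 ± 0.22, SE; adjusted p = 0.000919). Ccr9, Mycn, F13a1 and Csf1r each kept their call when any 1 of the 6 libraries was left out.

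The sequence next to the start was searched for motifs in Ccr9, Mycn, F13a1 and Clec7a, a lower gene described below. Only the stretches with a match, those of Ccr9 and F13a1, are shown. Each line gives the 150 bases before the gene's outermost annotated start, 5′ to 3′ on the gene's strand, from RefSeq (GRCm38.p6), and capitals mark matches to the motifs searched.
Ccr9, + strand, chr9:123767061-123767210: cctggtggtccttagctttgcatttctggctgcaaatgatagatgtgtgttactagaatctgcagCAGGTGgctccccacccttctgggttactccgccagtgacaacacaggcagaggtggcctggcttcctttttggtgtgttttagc
F13a1, - strand, chr13:37050245-37050394: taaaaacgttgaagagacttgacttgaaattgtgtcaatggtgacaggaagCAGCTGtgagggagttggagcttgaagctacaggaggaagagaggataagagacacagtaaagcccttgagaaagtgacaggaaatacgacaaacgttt
The Ccr9 stretch held the E-box CAGGTG, a sequence that E proteins such as E2-2 can bind, 85 to 80 bases before the start. The F13a1 stretch held another E-box, CAGCTG, 99 to 94 bases before the start. The same stretches of Mycn and Clec7a held none of the motifs searched. Ccr9 lies on chromosome 9 (123767211 to 123783457) and F13a1 on chromosome 13 (36867178 to 37050244). Over all called genes, each motif was searched on both strands in windows of 300 bases, 250 before and 50 after each start, with 764 of the 1022 higher genes and 645 of the 822 lower genes matched to 1092 and 767 windows. CAGCTG was in 21.2% of the windows of higher genes, in 14.0% of those of lower genes and in 16.3% of the 32851 windows of the whole table. CAGGTG was in 20.2%, 15.6% and 20.2% of them, the PU.1 sequence GAGGAAGT in 4.49%, 4.17% and 3.2%, and the C/EBP sequence TTGCNNAA in 9.71%, 9.52% and 10.8%. The Myc E-box CACGTG was in 10.4%, 10.4% and 7.15%, and the Runx sequence TGTGGTT in 5.22%, 4.17% and 5.27%. In the 11994 windows of the genes tested, the shares were 14.9% for CAGCTG, 17.3% for CAGGTG, 3.42% for the PU.1 sequence, 8.75% for the C/EBP sequence, 9.98% for CACGTG and 3.85% for the Runx sequence. These shares describe letters in a window, not bound sites.

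Ccr9 and Mycn among the higher genes and F13a1 among the lower belong to the 12 called genes with the largest differences in each direction and at least 5 FPKM in the higher subset. Gfra1, a receptor for glial cell line-derived neurotrophic factor, was at 20.2 and 21.7 CPM without CD115 and at 0.105 and 1.27 CPM with it (adjusted p = 0.00267). Lax1, an adaptor of lymphocyte receptor signaling, was at 45.5 and 35.1 CPM against 1.31 and 2.71 CPM (adjusted p = 0.000866). Cd79a, a signaling chain of the B cell receptor, was at 13.8 and 11.1 CPM against 0.21 and 1.54 CPM (adjusted p = 0.0063). Cpa3, a mast cell protease also found in hematopoietic progenitors, was at 26 and 32.1 CPM against 1.89 and 1.96 CPM (adjusted p = 0.000173). That both CD115-Ly6C- libraries stood above both others in each of these genes was a condition of the choice. It held for 32.1% of all genes tested. The other higher genes of the 12 were Tmem254b, Il17re, Tmem121, Tnni1, Wfdc18 and Myl10, with log2 fold changes between 3.99 and 4.64. Tmem254b has near-identical copies, so its count is uncertain, and the calls of Tnni1 and Wfdc18 ended without CD115+Ly6C- replicate 1 (adjusted p 0.0597 and 0.0651) or CD115-Ly6C- replicate 1 (adjusted p 0.0895 and 0.0687).

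Clec7a, which encodes the beta-glucan receptor Dectin-1 of myeloid cells, was the lowest relative to CD115+Ly6C- cells among the genes of that rule. Its level was 2.37 and 5.22 CPM without CD115 and 22.2 and 31 CPM with it (log2 fold change -2.81 ± 0.35, SE; adjusted p = 0.00239). Ccr2, the chemokine receptor by which monocytes leave the bone marrow, was at 49.1 and 77.8 CPM against 231 and 248 CPM (adjusted p = 0.00136). Mefv, which encodes the inflammasome protein pyrin, was at 3.37 and 5.52 CPM against 18.3 CPM in both CD115+Ly6C- libraries (adjusted p = 0.00138). Clec9a, a lectin receptor for dead cells on type 1 conventional dendritic cells and their progenitors, was at 6.89 and 6.72 CPM against 29.1 and 30.4 CPM (adjusted p = 0.000179), with Clec12b overlapping its locus, so that their reads cannot be told apart without strand. The others of the 12 were F13a1, Cd209a, Igsf6, Mmp8, Ifitm6, Nostrin, Pros1 and Ly6c2. Mmp8, a neutrophil collagenase, was at 10.1 CPM in CD115+Ly6C- replicate 1 and at 32.5 CPM in replicate 2, and its call ended without CD115-Ly6C- replicate 1 (adjusted p = 0.0713) or CD115-Ly6C- replicate 2 (adjusted p = 0.0795), and also with limma voom (adjusted p = 0.067) and on the log2 FPKM scale (adjusted p 0.0618 and 0.0552 at pseudocounts of 1 and 0.1). Nostrin and Pros1 lost their calls without CD115+Ly6C- replicate 1 (adjusted p 0.0649 and 0.0568).

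**Figure D1:**
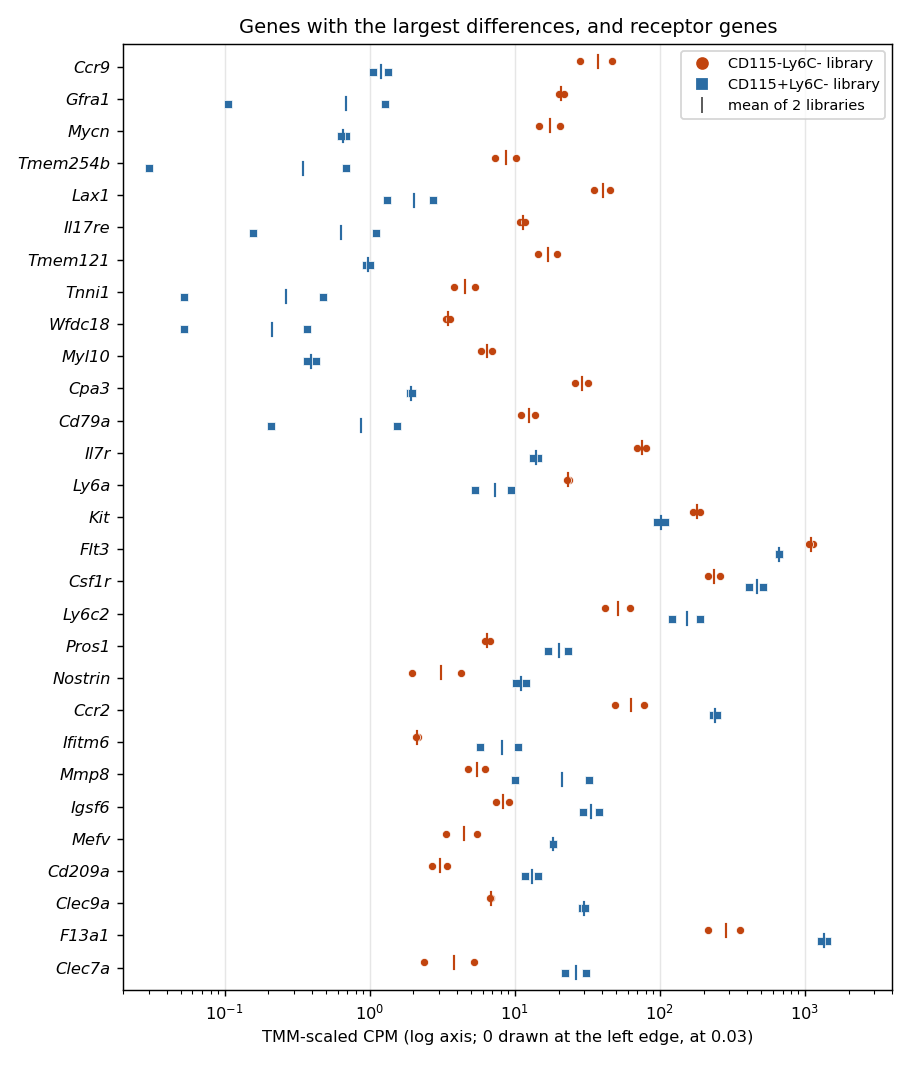
Level of each gene in the 4 libraries, in TMM-scaled CPM on a log axis, for the 12 higher and 12 lower genes with the largest differences and for 5 receptor and surface antigen genes. Points are libraries and short vertical lines are means of 2. The libraries of the subsets do not overlap in any gene plotted, as for Ccr9 (28.3 and 46.7 CPM against 1.05 and 1.33 CPM). For the genes with the largest differences this was a condition of the choice.

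Most growth factor receptors other than Csf1r were either higher without CD115 or not called. Of 28 tested receptor genes, 10 were higher and 4 lower, and the median log2 fold change was 0.0775 against 0.017 for all genes tested. Il1r1, the interleukin 1 receptor, was at 82.6 and 75.8 CPM without CD115 and at 25 and 19 CPM with it (adjusted p = 0.000565). Il2rg, the common gamma chain shared by receptors of lymphoid cytokines, was at 97.4 and 113 CPM against 45.8 and 34.3 CPM (adjusted p = 0.00369). Il6st, the signaling chain of interleukin 6 receptors, was lower, at 203 and 233 CPM against 300 and 298 CPM (adjusted p = 0.0267), and it lost its call without CD115+Ly6C- replicate 1 (adjusted p = 0.122), CD115+Ly6C- replicate 2 (adjusted p = 0.0865) or CD115-Ly6C- replicate 1 (adjusted p = 0.229) and under library totals (adjusted p = 0.0594) or on the log2 FPKM scale (adjusted p 0.0527 and 0.0581). The lower count of 4 was 1 under library totals and 1 without any of the same 3 libraries, and the higher count of 10 was 6 without CD115-Ly6C- replicate 1. Ranked by length-corrected level in CD115-Ly6C- cells, Flt3 stood at 339 FPKM, Il2rg at 75.9 FPKM, Csf1r at 68.5 FPKM, Kit at 38.4 FPKM and Il7r at 26.4 FPKM. In CD115+Ly6C- cells the corresponding values were 187, 26.6, 124, 19.9 and 4.5 FPKM.

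Downstream of CD115, some of the adaptors and kinases that carry its signal were called higher and few were called lower. Among 33 tested genes of CSF1 receptor signaling, 7 were higher and 3 lower, and the median log2 fold change was 0.211. Among all genes tested 8.43% were higher and 6.78% lower, so the lower count was near that share. Dok2, an adaptor that damps tyrosine kinase signaling, was at 68.9 and 61.5 CPM without CD115 and at 7.66 and 8.33 CPM with it, 8.15-fold apart (adjusted p = 0.000275), with Xpo7 overlapping its locus. Fgr, a Src family kinase of myeloid cells, was also higher, at 28.4 and 33.3 CPM against 11.9 and 12.5 CPM (adjusted p = 0.003). Dok3, a relative of Dok2, was lower at 31.5 and 32.3 CPM against 49.7 and 65.9 CPM (adjusted p = 0.00844), a call that ended without CD115-Ly6C- replicate 1 (adjusted p = 0.0506). The higher count of 7 was 4 once the trend of each library with transcript length was removed, and it lay between 2 and 6 without each library in turn, at 2 without CD115+Ly6C- replicate 1, 4 with CD115+Ly6C- replicate 2 left out, 2 without CD115-Ly6C- replicate 1 and 3 without CD115-Ly6C- replicate 2.

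Some transcription factors that direct dendritic cell fates were higher without CD115. Of 29 tested, 8 were higher and 2 lower, the latter a share near that of all genes tested, and the median log2 fold change was 0.336. Irf8, the factor on which dendritic cell progenitors depend and the most abundant of the list by FPKM, was at 2016 and 2210 CPM without CD115 and at 2318 and 2715 CPM with it and was not called (adjusted p = 0.175). Tcf4, which encodes the plasmacytoid factor E2-2, overlapped between subsets, at 161 and 208 CPM against 187 and 141 CPM (adjusted p = 0.559). Zbtb46 and Batf3, factors of committed conventional dendritic cells, were both below 1.2 CPM in all 4 libraries. Spib, an ETS factor of plasmacytoid dendritic cells, was at 15 and 14.2 CPM against 1.68 and 3.82 CPM (adjusted p = 0.0109), and its call ended without CD115+Ly6C- replicate 1 (adjusted p = 0.0736). Nfil3, a basic leucine zipper factor required for several innate lymphoid and dendritic lineages, was at 136 and 139 CPM against 48.7 and 52.4 CPM (adjusted p = 0.000529). Id2 and Irf4 were also called higher, at log2 fold changes of 0.826 and 2.185 (adjusted p 0.0173 and 0.0277). With each library left out in turn, these ran from 0.646 to 0.986 for Id2 and from 1.908 to 2.416 for Irf4. Neither gene kept its call in every such fit. Spi1, which encodes PU.1, was lower at 199 and 238 CPM against 283 and 309 CPM (adjusted p = 0.041), and Zeb2, a repressor of Id2, was lower at 116 and 134 CPM against 177 and 168 CPM (adjusted p = 0.029). The calls of Spi1 and Zeb2 ended under library totals (adjusted p 0.09 and 0.058), without CD115+Ly6C- replicate 1 (adjusted p 0.111 and 0.149) or CD115+Ly6C- replicate 2 (adjusted p 0.15 and 0.0767) or CD115-Ly6C- replicate 1 (adjusted p 0.303 and 0.233). Both calls ended on the log2 FPKM scale, at adjusted p between 0.0722 and 0.0985. The Spi1 call also ended without either CD115+Ly6C+ library (adjusted p 0.0561 each) and with the length trend removed (adjusted p = 0.0773). Across the list the higher count of 8 fell to 1 without CD115+Ly6C- replicate 1, 2 with CD115+Ly6C- replicate 2 left out, 3 without CD115-Ly6C- replicate 1 and 3 without CD115-Ly6C- replicate 2, and it was 5 with the length trend removed. The lower count was 0 under library totals, on the log2 FPKM scale and with CD115+Ly6C- replicate 1, CD115+Ly6C- replicate 2 or CD115-Ly6C- replicate 1 left out.

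**Figure D2:**
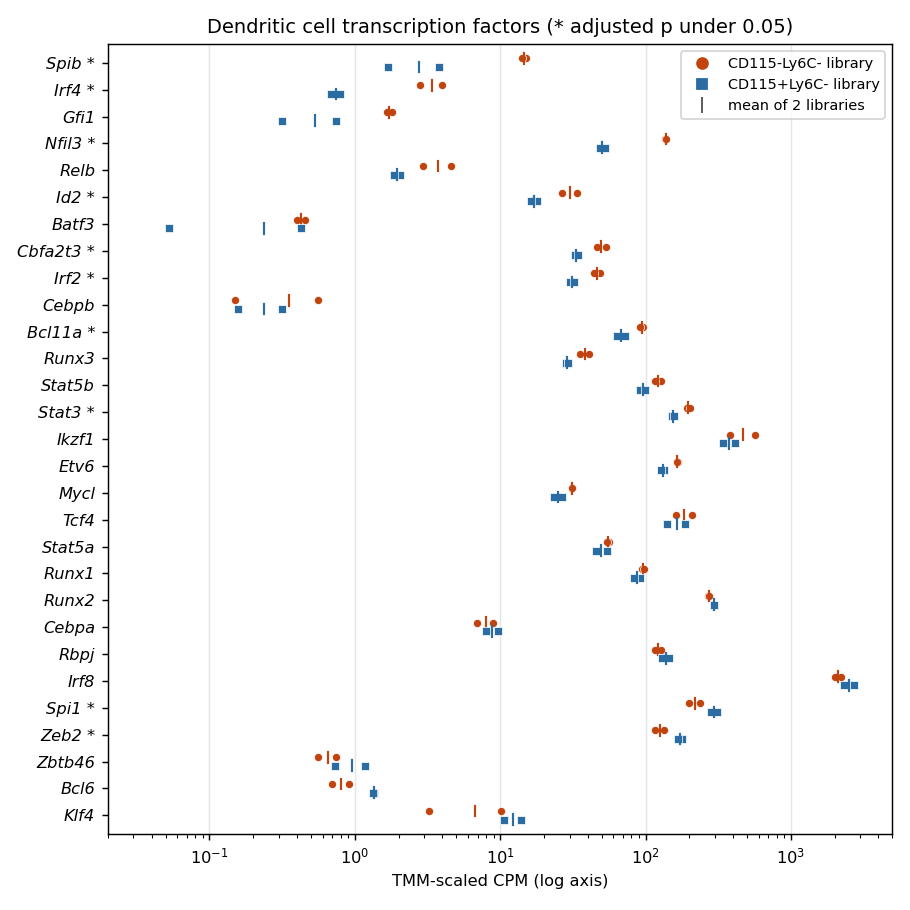
Level of the 29 tested dendritic cell transcription factors in each library, in TMM-scaled CPM on a log axis, ordered by log2 fold change. Points are libraries, short vertical lines are means of 2 and asterisks mark called genes; Irf8 has the highest CPM in every library, with points between 2016 and 2715 CPM.

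In the Myc network, Mycn was below 1 CPM in both CD115+Ly6C- libraries while Myc was expressed in all 4. Of 12 tested members, 4 were higher and 1 lower, and the higher count was 2 without any 1 of the 4 compared libraries and with the length trend removed. Myc was at 316 and 310 CPM without CD115 and at 236 and 200 CPM with it (log2 fold change 0.52 ± 0.11, SE; adjusted p = 0.019). Mxd3, a partner of Max that is transcribed in dividing cells, was lower at 26.7 and 24.3 CPM against 60.8 and 59.6 CPM (adjusted p = 0.000852), with Prelid1 overlapping its locus. The Myc call ended without CD115+Ly6C- replicate 2 (adjusted p = 0.089) or CD115-Ly6C- replicate 1 (adjusted p = 0.113) or CD115-Ly6C- replicate 2 (adjusted p = 0.0608).

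Among plasmacytoid dendritic cell markers, more were called higher than lower. Of 27 tested, 13 were higher and 3 lower, and the median log2 fold change was 0.647. Dntt, which encodes the terminal transferase that adds bases to rearranging antigen receptor genes, was at 2936 and 2540 CPM against 281 and 385 CPM (log2 fold change 3.04 ± 0.20, SE; adjusted p = 0.000173). Ly6d, a surface antigen of lymphoid and plasmacytoid progenitors, was at 295 and 338 CPM against 88.9 and 78.7 CPM (adjusted p = 0.000173). Siglech, a lectin receptor of plasmacytoid dendritic cells, was at 169 and 170 CPM against 74.5 and 88.7 CPM (adjusted p = 0.0027). Blnk, an adaptor of the B cell receptor also used by plasmacytoid cells, was at 68.1 and 80.7 CPM against 25.4 and 24.2 CPM (adjusted p = 0.000866). Upb1, an enzyme of pyrimidine breakdown, was among the 3 lower members, at 9.31 and 13.3 CPM against 29 and 27.6 CPM (adjusted p = 0.00664), a call that ended without CD115+Ly6C- replicate 1 (adjusted p = 0.0506). Bst2, which encodes the plasmacytoid surface protein PDCA-1, overlapped between the subsets at 173 and 183 CPM against 176 and 209 CPM (adjusted p = 0.556). The higher count stayed between 11 and 13 without each library in turn, while the median ran from 0.374 to 1.13. The lower count of 3 was 0 without CD115+Ly6C- replicate 1 and 1 without CD115+Ly6C- replicate 2 or CD115-Ly6C- replicate 1.

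Markers of conventional dendritic cells were mixed. Of 15 type 1 markers tested, 4 were higher and 2 lower, and of 15 type 2 markers 4 were higher and 5 lower. The median log2 fold change was 0.64 for the type 1 list, close to the 0.647 of the plasmacytoid list. It was -0.31 for the type 2 list. Within the type 2 list, Cd209a, the lectin DC-SIGN, was lower at 2.67 and 3.43 CPM against 14.4 and 11.8 CPM (adjusted p = 0.00272). Cx3cr1, the fractalkine receptor of monocytes and dendritic progenitors, was lower at 48.7 and 55.8 CPM against 103 and 108 CPM (adjusted p = 0.0063). Ltb, lymphotoxin beta, was higher at 16.1 and 16.7 CPM against 1.31 and 1.33 CPM (adjusted p = 0.000275). Xcr1, the chemokine receptor that defines mature type 1 cells, was between 0.315 and 1.59 CPM in the 4 libraries and was not called (adjusted p = 0.747). Without CD115+Ly6C- replicate 1 the higher calls of the type 1 list fell to 0, with 1 gene still lower, and they were 2, 1 and 2 without CD115+Ly6C- replicate 2, CD115-Ly6C- replicate 1 and CD115-Ly6C- replicate 2. The type 2 counts were 2 higher and 2 lower without CD115-Ly6C- replicate 1, and the higher count was also 2 without CD115+Ly6C- replicate 1 or CD115-Ly6C- replicate 2, while the lower count was 3 without CD115+Ly6C- replicate 2. Of 18 markers shared by dendritic cells, 7 were higher, 4 of them class II genes, and 1 was lower.

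Several MHC class II genes, which encode the chains that present peptides to helper T cells, were higher without CD115. Of 19 genes of the class II pathway tested, 6 were higher and 2 lower. Cd74, the invariant chain, was at 73.6 and 87.6 CPM against 19 and 19.2 CPM (log2 fold change 2.08 ± 0.20, SE; adjusted p = 0.000866). H2-Aa, an alpha chain, was at 16.4 and 20.6 CPM against 5.3 and 6.1 CPM (adjusted p = 0.00216). H2-Ob, a chain of the DO protein that restrains peptide loading in B cells and progenitors, was at 307 and 297 CPM against 74 and 73.7 CPM (log2 fold change 2.03 ± 0.10, SE; adjusted p = 0.00014). The 2 lower genes act in antigen processing: Ifi30, a lysosomal thiol reductase, was at 19.4 and 21.9 CPM against 38.6 and 48.8 CPM (adjusted p = 0.00365). Ctsh, a cathepsin, was at 117 and 179 CPM against 250 and 287 CPM (adjusted p = 0.0244) and lost its call without CD115-Ly6C- replicate 1 (adjusted p = 0.117), CD115+Ly6C- replicate 1 (adjusted p = 0.0857) and CD115+Ly6C- replicate 2 (adjusted p = 0.108). The lower count was 4 with DESeq2, 5 with no filter on low counts and 4 without CD115-Ly6C- replicate 2.

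Most genes of early lymphoid differentiation were higher without CD115. Of 21 tested, 13 were called higher, 20 had estimates above 0 and the median log2 fold change was 1.58. Arpp21, a gene of early B and T cell precursors, was at 55.4 and 52.6 CPM against 10.3 and 10.7 CPM (adjusted p = 0.000179). Rag1, which encodes a subunit of the antigen receptor recombinase, was at 13.2 and 10.4 CPM against 0.577 and 0.212 CPM (adjusted p = 0.00196). Gata3, a T cell and innate lymphoid factor, was at 7.15 and 10 CPM against 0.21 and 0.159 CPM (log2 fold change 5.49 ± 0.51, SE; adjusted p = 0.000751). Ebf1, a factor that specifies B cells, was at 7.4 and 7.66 CPM against 0 and 0.477 CPM (adjusted p = 0.00654). Vpreb2, a surrogate light chain gene, had 39 reads over the CD115-Ly6C- libraries and 0 over the others, at least 12.3-fold higher if 3 counts in the CD115+Ly6C- pair are taken as the floor (adjusted p = 0.0257). The higher count of the list was 10 to 13 without each library in turn. Lists can share genes, so the counts of this list and of the plasmacytoid list are not separate evidence.

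Genes of the B cell, T cell, and NK and innate lymphoid lists were called mostly in the same direction. Of 13 B cell genes tested 7 were higher, of 13 T cell genes 9 were higher, and of 11 NK and innate lymphoid genes 7 were higher and 1 was lower. Without CD115+Ly6C- replicate 1 or CD115-Ly6C- replicate 1 the B cell count and the NK count were each 4, and the NK count was 4 without CD115+Ly6C- replicate 2. Lck, the kinase of T cell receptor signaling, was at 142 and 143 CPM against 27.1 and 29.1 CPM (log2 fold change 2.34 ± 0.14, SE; adjusted p = 0.000151). Blk, a B cell kinase, was at 23.6 and 20.7 CPM against 2.36 and 2.49 CPM (adjusted p = 0.000275). Tox, a nuclear factor of T cell and innate lymphoid development, was at 55.3 and 41.7 CPM against 3.93 and 3.55 CPM (adjusted p = 0.000183). Klrk1, which encodes the receptor NKG2D, was the lower member, at 22.1 and 24.9 CPM against 49.4 and 49.3 CPM (adjusted p = 0.00396). Tcf7, a T cell factor, had 268 reads over the CD115-Ly6C- libraries and 1 over the others (adjusted p = 0.00477), with Skp1 overlapping its locus. The ratio of the Tcf7 counts was 254 (exact 95% interval 45.2 to 10100.0, covering counting error only).

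Several genes that define mature lymphocytes were at or near 0. Cd3e and Cd3g, chains of the T cell receptor complex, and Eomes, an NK cell factor, had no reads in the 4 libraries, and Cd3d did not exceed 0.0525 CPM. Pax5, the factor of B cell commitment, reached 0.101 CPM in 1 library and had no reads in the others. The summed level of the T cell list was 276.1 and 273.5 CPM without CD115 and 64.63 and 69.92 CPM with it, and that of the B cell list was 566.6 and 553.2 CPM against 379.3 and 399.2 CPM.

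Many stem and multipotent progenitor genes were higher without CD115. Of 35 tested, 21 were higher, 31 had estimates above 0 and the median log2 fold change was 1.13. Adgrl4, an adhesion receptor of blood vessel and stem cells, was at 238 and 229 CPM against 103 and 110 CPM (adjusted p = 0.000565). Adgrg1, an adhesion receptor that marks blood stem cells, was at 525 and 413 CPM against 154 and 186 CPM (adjusted p = 0.00136). Meis1, a homeobox partner of Hox proteins in stem cells, was at 64.5 and 64.8 CPM against 22.3 and 28.4 CPM (adjusted p = 0.00178). Mecom, a stem cell zinc finger factor, was at 2.42 and 2.64 CPM against 0.157 and 0.0531 CPM (adjusted p = 0.0116). Cd34, the classical progenitor antigen, was at 1435 and 1373 CPM against 1112 and 967 CPM (log2 fold change 0.43 ± 0.11, SE; adjusted p = 0.0357). The count of 21 was 9 without CD115+Ly6C- replicate 1, 13 with CD115+Ly6C- replicate 2 left out and 10 without CD115-Ly6C- replicate 1.

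Smaller numbers of megakaryocyte, erythroid, basophil and mast cell genes were called. Among 20 megakaryocyte and erythroid genes 5 were higher, and among 14 basophil, mast cell and eosinophil genes 3 were higher. The median log2 fold change was 0.834 for the first list, with 16 estimates above 0 and 4 below. For the second it was -0.412, with 6 above 0 and 8 below, so that list as a whole was not higher. Car2, a carbonic anhydrase, was at 98.5 and 89.5 CPM against 32.7 and 22.2 CPM (adjusted p = 0.00138). Gfi1b, a repressor of the megakaryocyte and erythroid lineages also found in stem cells, was at 27.6 and 20.2 CPM against 4.72 and 4.51 CPM (adjusted p = 0.00196). Pf4, a chemokine of platelets, did not exceed 0.199 CPM. The 5 megakaryocyte and erythroid calls were 2 without either CD115+Ly6C- library or either CD115-Ly6C- library, and the 3 calls of the mast cell list were 1 without each of those libraries.

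Among monocyte genes, calls were mostly lower without CD115. Of 30 tested, 10 were lower and 1 was higher, 24 had estimates below 0 and the median log2 fold change was -0.84. Ms4a6c, a membrane protein of monocytes, was at 175 and 229 CPM against 505 and 468 CPM (adjusted p = 0.00139). Fgr was the higher member. Lyz2, the lysozyme gene of monocytes and neutrophils, was at 247 and 224 CPM against 202 and 383 CPM and was not called (adjusted p = 0.413). The summed level of the list was 3196 and 3699 CPM without CD115 and 5003 and 5434 CPM with it, and its lower count stayed between 8 and 11 without each library in turn. The median was less stable: it was -0.201 without CD115+Ly6C- replicate 2, -0.553 and -0.456 without CD115-Ly6C- replicate 1 and replicate 2, and -0.25 on the log2(FPKM + 1) scale. The marker gene F13a1, described above, is a member of the list and made up much of the difference between the summed levels.

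Fc receptors and C-type lectins, which let phagocytes bind antibody and microbial sugars, were called lower more often than higher. Of 22 tested, 10 were lower and 2 higher, at a median log2 fold change of -1.17, which was -0.849 over the 16 members with a mean of at least 1 CPM and -0.524 on the log2(FPKM + 1) scale. The higher count was 0 without CD115+Ly6C- replicate 1, CD115+Ly6C- replicate 2 or CD115-Ly6C- replicate 2 and 1 without CD115-Ly6C- replicate 1, and the lower count stayed between 7 and 9. Fcgr2b, the inhibitory Fc gamma receptor, was at 27.1 and 32.7 CPM against 65.9 and 63.7 CPM (adjusted p = 0.00308). Fcer1g, the signaling chain shared by activating Fc receptors, was at 156 and 200 CPM against 345 and 357 CPM (adjusted p = 0.00373). Macrophage genes were mostly too low to separate: 12 of the 22 listed were tested and 2 were lower, with 0 lower without CD115-Ly6C- replicate 1 and 1 without CD115+Ly6C- replicate 2. Adgre1, which encodes a surface antigen of mature macrophages, was at 1.16 and 1.34 CPM against 4.67 and 4.35 CPM (adjusted p = 0.00804), a call that ended without CD115-Ly6C- replicate 1 (adjusted p = 0.0532). Lgals3, which encodes galectin-3, was at 4.38 and 8.81 CPM against 12.4 and 25 CPM (adjusted p = 0.0296) and lost its call without CD115+Ly6C- replicate 2 (adjusted p = 0.145) or CD115-Ly6C- replicate 1 (adjusted p = 0.136).

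Primary granule genes, made by myeloid progenitors at the promyelocyte stage, were lower in 6 of 16 cases and higher in 2, with 3 lower when CD115-Ly6C- replicate 1 was left out. Mpo, myeloperoxidase, was abundant in all libraries at 2406 and 2622 CPM against 4646 and 3682 CPM (adjusted p = 0.0123), and its call ended without CD115+Ly6C- replicate 1 (adjusted p = 0.0838) or CD115-Ly6C- replicate 1 (adjusted p = 0.0706). Ctsg, cathepsin G, was at 268 and 310 CPM against 568 and 602 CPM (adjusted p = 0.00169). Prtn3, proteinase 3, was at 99.5 and 128 CPM against 233 and 267 CPM (adjusted p = 0.00245). Nkg7, a granule membrane protein of cytotoxic cells, was higher at 135 and 142 CPM against 69.3 and 50.8 CPM (adjusted p = 0.0042).

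Late granule genes of neutrophils separated 1 library rather than the subsets. Their summed level was 497.1 and 320.2 CPM without CD115, 388.1 CPM in CD115+Ly6C- replicate 1 and 1192 CPM in CD115+Ly6C- replicate 2. Ltf, lactoferrin, was at 47.1 and 22.4 CPM against 39.1 and 160 CPM (adjusted p = 0.0996), and S100a8, a calcium-binding protein of neutrophils and monocytes, was at 84.2 and 40.7 CPM against 62.1 and 246 CPM (adjusted p = 0.137). Of 21 tested, 1 was lower and 2 were higher, shares near the 6.78% and 8.43% of all genes tested. The lower count was 9 with no filter on low counts. With CD115+Ly6C- replicate 1 left out, 11 were lower, and with CD115+Ly6C- replicate 2 left out, 1 was lower and the median log2 fold change went from -1.05 to 0.00113. The part of neutrophil RNA in the lower genes was not tested.

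**Figure D3:**
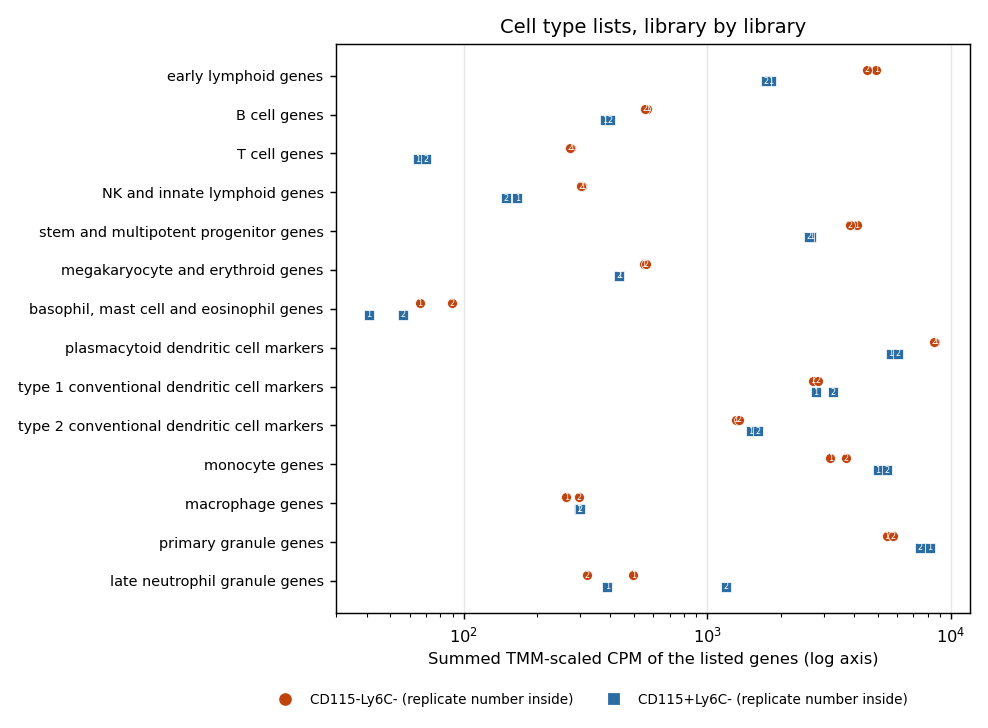
Summed TMM-scaled CPM of the genes of each cell type list in each of the 4 libraries, on a log axis, with the replicate number in each point. Lymphoid and stem cell lists lie higher in both CD115-Ly6C- libraries (T cell genes 276.1 and 273.5 CPM against 64.63 and 69.92 CPM), monocyte genes lie lower, and late granule genes are highest in CD115+Ly6C- replicate 2.

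Transcripts of dividing cells were lower without CD115. All 34 tested genes of the G2 and M phases were called lower, 21 of them by at least 2-fold. The median log2 fold change was -1.05, with no overlap between the libraries of the subsets in any of them. Among all genes tested, 29.8% did not overlap in the lower direction and 32.1% in the higher. Cdc20, the activator of the anaphase-promoting complex, was at 135 and 163 CPM against 372 and 334 CPM (log2 fold change -1.24 ± 0.13, SE; adjusted p = 0.00136). Ube2c, a ubiquitin-conjugating enzyme of that complex, was at 70.7 and 87.6 CPM against 189 and 197 CPM (adjusted p = 0.00136). Ccnb1, cyclin B1, was at 161 and 236 CPM against 545 and 485 CPM (log2 fold change -1.38 ± 0.17, SE; adjusted p = 0.00245). Mki67, the proliferation antigen Ki-67, was at 119 and 150 CPM against 383 and 279 CPM (adjusted p = 0.00302). Kif23, a kinesin of cytokinesis, had the smallest difference of the 34, at 140 and 146 CPM against 201 and 224 CPM (log2 fold change -0.57 ± 0.13, SE). The 34 were all called under each other test, scaling and filter tried, and between 27 and 34 were called when 1 library was left out. Cdc20 overlaps Elovl1, Tk1 overlaps Afmid, Itga4 overlaps Cerkl and Ctsz overlaps Nelfcd, and since no source states that strand was kept, such neighbors could share reads.

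Fewer of the DNA replication genes were called. Of 41 tested, 15 were called lower, 38 had estimates below 0, and the median log2 fold change was -0.305. Tk1, thymidine kinase, was at 129 and 137 CPM against 242 and 239 CPM (adjusted p = 0.00201). Rrm1, a ribonucleotide reductase subunit, was at 757 and 832 CPM against 1238 and 1176 CPM (adjusted p = 0.0077), a call that ended without CD115+Ly6C- replicate 1 (adjusted p = 0.0567) or CD115-Ly6C- replicate 1 (adjusted p = 0.0779). Mcm2, a subunit of the replicative helicase, was at 543 and 570 CPM against 589 and 571 CPM and was not called (adjusted p = 0.719). The count of 15 was 1 without CD115+Ly6C- replicate 1, 8 with CD115+Ly6C- replicate 2 left out and 1 without CD115-Ly6C- replicate 1. None of 79 ribosomal protein genes was called by edgeR, with 2 at an unadjusted p under 0.05, 1 called by DESeq2 and 1 by limma voom, and their median log2 fold change was 0.0238.

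**Figure D4:**
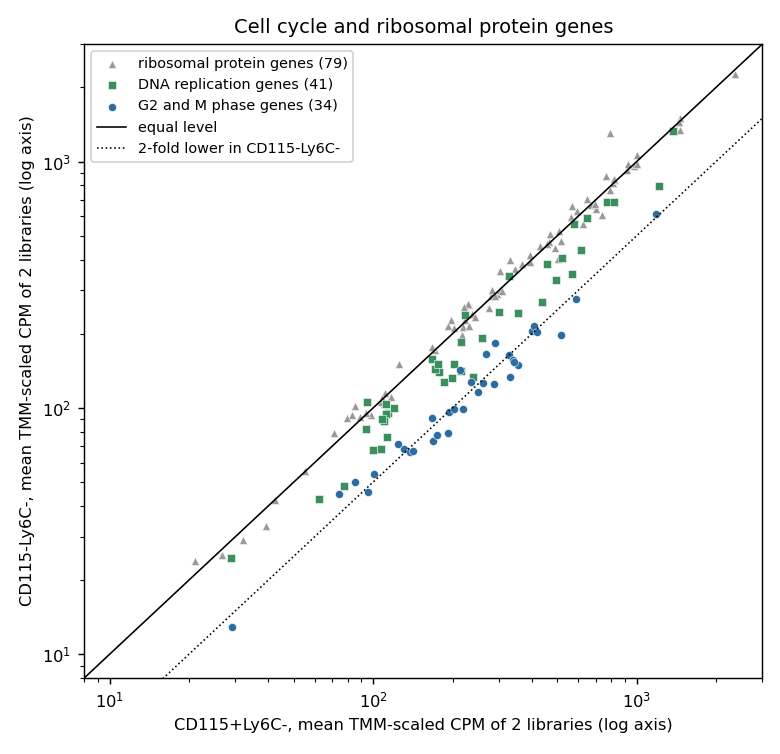
Mean TMM-scaled CPM of 2 libraries in CD115+Ly6C- cells against that in CD115-Ly6C- cells, on log axes, for 34 G2 and M phase genes, 41 DNA replication genes and 79 ribosomal protein genes. The G2 and M phase genes lie along the dotted line of a 2-fold lower level (median log2 fold change -1.05), and ribosomal protein genes lie on the line of equal level (0.0238).

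The promoters of 3 G2 and M phase genes are shown because genes of these phases are known to be regulated through CCAAT boxes and a cell cycle homology region (CHR). These 3 genes were picked from the called genes of the list for holding both elements in the 150 bases before the start. Capitals mark the matches (CCAAT and TTTGAA, or their reverse complements).
Cdc20, - strand, chr4:118437344-118437493: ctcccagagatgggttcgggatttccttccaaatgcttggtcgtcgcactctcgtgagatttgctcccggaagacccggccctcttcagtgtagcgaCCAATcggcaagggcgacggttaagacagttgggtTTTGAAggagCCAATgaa
Ube2c, + strand, chr2:164769779-164769928: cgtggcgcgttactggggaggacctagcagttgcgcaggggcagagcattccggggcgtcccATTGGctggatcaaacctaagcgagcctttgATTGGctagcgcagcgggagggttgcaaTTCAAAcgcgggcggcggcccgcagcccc
Cdk1, - strand, chr10:69352913-69353062: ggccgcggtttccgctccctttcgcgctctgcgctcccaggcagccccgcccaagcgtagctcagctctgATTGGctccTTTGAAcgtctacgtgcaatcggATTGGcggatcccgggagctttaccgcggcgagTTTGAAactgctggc
In Cdc20 the CHR letters ended 13 bases before the start, in Ube2c 24 bases, and in Cdk1, the kinase that drives entry into mitosis, 66 and 10 bases. For 28 of the 34 genes, 29 windows of 300 bases were in the table. CCAAT was in 75.9% of them and in 37.4% of all windows of the table, and TTTGAA was in 72.4% and in 17.9%. In windows of the genes tested the shares were 38.3% and 12.3%. Counting only the 250 bases before the start, TTTGAA was in 31.0% of the windows of the list and in 16% of all, so most of its matches in the list reached into the 50 bases after the start. Both motifs were chosen after these genes were seen to differ, and the shares describe the list, not the difference between the subsets.

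Many interferon stimulated genes were higher without CD115. Of 32 tested, 16 were higher, 29 had estimates above 0 and the median log2 fold change was 1.1. Rtp4, a chaperone induced by interferon, was at 35.9 and 37.9 CPM against 4.83 and 4.09 CPM (log2 fold change 3.05 ± 0.22, SE; adjusted p = 0.000179), with Masp1 overlapping its locus. Ifi44 was at 60.8 and 56.8 CPM against 12 and 13.4 CPM (adjusted p = 0.000179). Ddx58, which encodes the viral RNA sensor RIG-I, was at 29.5 and 21.3 CPM against 3.78 and 2.18 CPM (adjusted p = 0.00186). Irf7, the master factor of type I interferon production in plasmacytoid dendritic cells, was at 33.1 and 27 CPM against 6.29 and 9.18 CPM (adjusted p = 0.00235). Isg15, a ubiquitin-like protein, was at 3.57 and 3.43 CPM against 1.42 and 2.86 CPM and was not called (adjusted p = 0.32). The count of 16 was 8 without CD115+Ly6C- replicate 1 and 9 without CD115-Ly6C- replicate 1.

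Ifit1, an interferon-induced protein that binds viral RNA, is shown as an example of a promoter of this list with the letters of an interferon-stimulated response element (GAAA, any 2 bases, then GAAA, in capitals on either strand).
Ifit1, + strand, chr19:34640739-34640888: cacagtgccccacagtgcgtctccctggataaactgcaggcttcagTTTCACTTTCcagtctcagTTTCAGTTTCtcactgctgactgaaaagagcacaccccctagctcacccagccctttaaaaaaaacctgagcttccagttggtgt
The 2 matches lay 104 to 95 and 85 to 76 bases before the start. Ifit1 itself was at 7.5 and 7.07 CPM against 2.15 and 1.01 CPM (adjusted p = 0.0211), with Ifit1bl1 overlapping its locus. For 23 of the 32 genes 28 windows were in the table, and 53.6% of them held the motif against 3.44% of all windows and 3.27% of those of the genes tested. This motif, too, was chosen after the list was seen to differ.

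Among innate sensors, Tlr7, the receptor for single-stranded RNA in plasmacytoid dendritic cells, was higher without CD115, at 42.6 and 46.3 CPM against 17.4 and 17.6 CPM (adjusted p = 0.00266). Of 24 tested Toll-like receptors and adaptors, 3 were higher and 3 lower, while 8.43% of all genes tested were higher and 6.78% lower. The lower count was 5 under DESeq2, 6 with no filter on low counts, and 1 with the 4 libraries alone, library totals or log2 FPKM. Leaving out CD115+Ly6C- replicate 1, CD115+Ly6C- replicate 2 or CD115-Ly6C- replicate 1 gave 1 higher gene each and 1, 0 and 0 lower genes, and 1 was lower without either CD115+Ly6C+ library. Ly86, which encodes MD-1, a partner of the receptor RP105, was lower at 245 and 302 CPM against 412 and 469 CPM (adjusted p = 0.0115), a call that ended without CD115+Ly6C- replicate 2 (adjusted p = 0.0648) or CD115-Ly6C- replicate 1 (adjusted p = 0.0968). In the Notch pathway, which commits progenitors to the T lineage, 6 of 22 genes were higher and 1 lower. The lower gene, Hes6, was at 318 and 340 CPM against 442 and 415 CPM (adjusted p = 0.0394), and its call ended without any 1 of the 6 libraries (adjusted p from 0.0536 to 0.267) and under library totals (adjusted p = 0.0969). Jag2, a Notch ligand, was at 9.21 and 10.3 CPM against 1.21 and 1.59 CPM (adjusted p = 0.00402), and Mfng, a sugar transferase that modifies Notch receptors, was at 100 and 78.8 CPM against 35.5 and 46.6 CPM (adjusted p = 0.00521). Notch1 was at 174 and 132 CPM against 60 and 80.8 CPM (adjusted p = 0.0127), and its call ended without CD115+Ly6C- replicate 1 (adjusted p = 0.107) or CD115-Ly6C- replicate 1 (adjusted p = 0.0707). The Notch count of 6 was 3 without CD115+Ly6C- replicate 1, 3 with CD115+Ly6C- replicate 2 left out and 2 without CD115-Ly6C- replicate 1.

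Integrins gave fewer calls than lysosomal genes. The shares to set beside the counts are 8.43% higher and 6.78% lower among all genes tested. Of 17 integrin chains 2 were higher, among them Itga4, the alpha chain of VLA-4, at 205 and 186 CPM against 84 and 82.9 CPM (adjusted p = 0.00054). Of 12 chemokine receptors 2 were higher, Ccr9 and Ccr7, and 2 were lower, Ccr2 and Cx3cr1. Ccr7, the receptor for lymph node chemokines, was at 71.2 and 70.5 CPM against 44 and 39.3 CPM (adjusted p = 0.00971), a call that ended without CD115+Ly6C- replicate 2 (adjusted p = 0.0608) or CD115-Ly6C- replicate 1 (adjusted p = 0.0583). Of 35 lysosome genes 4 were higher and 8 lower. Ctsz, a cathepsin, was at 249 and 292 CPM against 471 and 477 CPM (adjusted p = 0.00329). The lysosome counts were 0 higher and 2 lower without CD115+Ly6C- replicate 1, 2 and 2 with CD115+Ly6C- replicate 2 left out, and 0 and 1 without CD115-Ly6C- replicate 1. The higher count was 1 without CD115-Ly6C- replicate 2 and 2 without either CD115+Ly6C+ library.

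Immediate early genes, whose transcripts appear within minutes of stimulation or cell handling, varied between the libraries of each subset. Their summed level was 3210 and 5944 CPM without CD115 and 1897 and 3789 CPM with it, so that the ranges overlapped. In both subsets replicate 2 had the higher sum, and at each replicate number the CD115-Ly6C- library had the higher sum. Fos was at 878 and 1887 CPM against 489 and 1267 CPM (adjusted p = 0.407). Of 25 tested, 3 were higher, while 8.43% of all genes tested were higher. They were Dusp2, a phosphatase, at 141 and 135 CPM against 27.4 and 60.5 CPM (adjusted p = 0.0096), Socs3 and Junb. Socs3 and Junb lost their calls without CD115+Ly6C- replicate 1 (adjusted p 0.135 and 0.157) or CD115-Ly6C- replicate 2 (adjusted p 0.096 and 0.1), and Socs3 also without CD115-Ly6C- replicate 1 (adjusted p = 0.0678). The count was 5 with DESeq2, limma voom or library totals, 6 on the log2 FPKM scale, 11 with no filter on low counts, 6 without CD115+Ly6C- replicate 2 and 1 without CD115+Ly6C- replicate 1 or CD115-Ly6C- replicate 2.

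**Figure D5:**
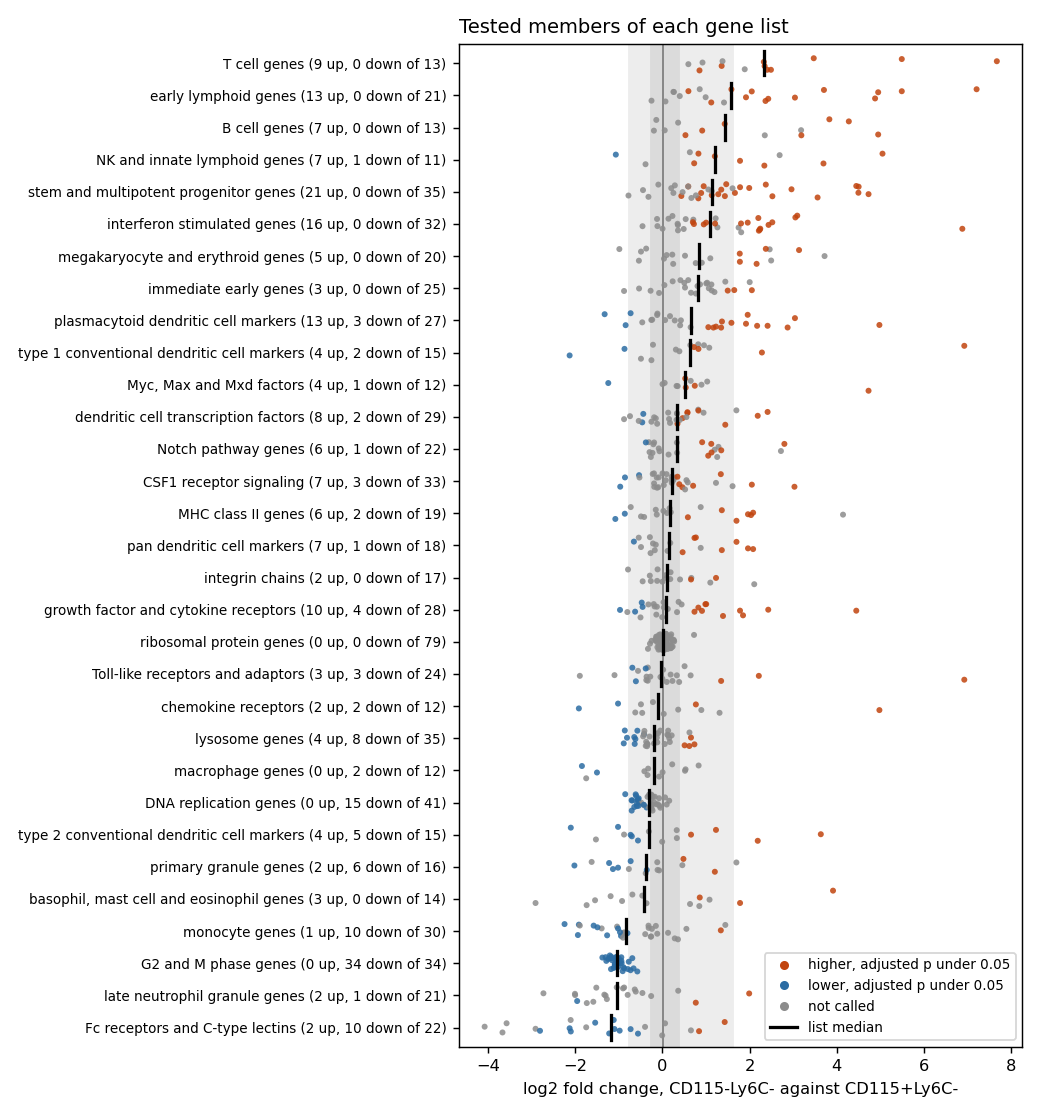
Log2 fold change (CD115-Ly6C- against CD115+Ly6C-) of each tested member of 31 gene lists, ordered by median. Each point is a gene, black bars are list medians, and grey bands give the middle 50% and 90% of all 12127 genes tested; list medians run from -1.17 for Fc receptors and C-type lectins to 2.33 for T cell genes.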

How the data were processed

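Polyadenylated RNA of sorted bone marrow progenitors was sequenced. The authors deposited expected counts and FPKM values per gene, made with Bowtie2 and RSEM on mm10 per the submitters' processing notes, with no version stated in those notes. Whether reads were counted by strand is not stated, and molecular identifiers are not mentioned, so counting intervals cover counting error only.

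Rounding made the expected counts whole, and a gene missing from a table was taken as 0. Genes were kept by filterByExpr (minimum count 10, minimum total 15), scaled with TMM and tested with edgeR 4.0.16 in R 4.3.3 over all 6 libraries, with 1 coefficient per subset, 3 residual degrees of freedom and a biological coefficient of variation of 15.19%. Totals over the 6 libraries ran from 17961541 to 19450329. Replicates differed beyond sampling noise (chi-square per degree of freedom 18.84 and 21.42). The fit was tested on simulated data. Alternatives used DESeq2 1.42.0, limma 3.58.1, other scalings and filters, a replicate block, a length correction, log2(FPKM + 1) and log2(FPKM + 0.1), and each library left out.

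The genes, gene lists and motifs were chosen with earlier results of these data known. The naming rule took 10 sort and marker genes, the 12 largest differences in each direction with at least 5 FPKM in the higher subset, up to 6 called members of each list (4 per direction) and markers of other cell types. Genes named outside it, chosen after their values were seen, include Cdk1, Ccnb1, Mki67, Kif23, Mcm2, Irf8, Tcf4, Zbtb46, Batf3, Rag1, Vpreb2, Tcf7, Ifit1, Irf7, Isg15 and Fos. The added motifs (CCAAT, CHR and the interferon element) were also chosen after values were seen.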

Additional observations from a re-analysis of the deposited data

How the results depend on the processing

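With 2 libraries a subset, single libraries decided much of the number of calls. Leaving out 1 library gave 291 to 996 higher and 165 to 755 lower genes against 1022 and 822. The extremes came without CD115+Ly6C- replicate 1 (291 and 207) or CD115-Ly6C- replicate 1 (320 and 165), where the lone library is assumed to vary like the others. Library totals gave 479 lower genes, and 1383 higher; the cause was not tested. Of 136 named genes that were called, 77 kept the call without each library in turn, and none of the named genes reversed direction under any alternative. The block on replicate number gave 847 higher and 656 lower genes, ended 6 calls of named genes and raised the immediate early count from 3 to 12. Deviations of same-numbered libraries correlated at -0.00399, -0.0104 and 0.152 over all 12127 genes tested, so the numbers were not taken to pair the samples. These correlations do not address single lists, and the immediate early sum was higher in replicate 2 of both compared subsets. Removing the length trend ended 6 calls of named genes, and library totals ended 7.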

Other observations

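Gene families outside the lists, chosen after their values were seen and therefore descriptive, also differed. Of 8 tested Gimap genes, GTPases of lymphocyte survival, 7 were higher without CD115. Gimap6 was at 288 and 298 CPM against 60.1 and 50.1 CPM (edgeR adjusted p = 0.00014). Of 16 interferon-inducible GTPases, which attack the vacuoles of intracellular microbes, 10 were higher. Tgtp1 was at 44.9 and 43.5 CPM against 3.62 and 3.4 CPM (edgeR adjusted p = 0.000366), and it has a near copy in Tgtp2. The Gimap count was 6 to 7 and the GTPase count 7 to 10 without each library in turn.

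Lower calls included centromere proteins (14 of 20 Cenp genes), respiratory complex I (15 of 37 Nduf genes) and the proteasome (14 of 38 Psm genes). Cenpa, the centromeric histone, was at 89.7 and 102 CPM against 187 and 201 CPM (edgeR adjusted p = 0.00138). Under library totals these counts were 9, 6 and 2, with the length trend removed 10, 3 and 4, and without CD115+Ly6C- replicate 1 they were 3, 0 and 0. They were 5, 2 and 1 without CD115+Ly6C- replicate 2, 4, 0 and 0 with CD115-Ly6C- replicate 1 left out, and 8, 5 and 4 without CD115-Ly6C- replicate 2.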
